A study of Mus musculus with 10 samples.

Results

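The 10 transcription factors studied here steer myeloid progenitors toward granulocytes or toward monocytes and macrophages, and their transcripts were measured in spleen and tumor myeloid cells of Shp2f/f and Shp2f/fLysMcre mice. They were chosen by name, with earlier results of these data known. The factors were Gfi1, Cebpa, Cebpb, Cebpd, Cebpe, Spi1, Irf8, Irf4, Runx1 and Myb, which are 10 of the 55421 genes in the count table. All 10 were counted in every library and passed the filter on low counts in every comparison. The cells came from mice bearing MC17-51 fibrosarcomas, 15 days after implantation. Myeloid-derived suppressor cells (MDSC) were GR-1+ cells of the spleen by their labels, and the methods of the study describe them more narrowly, as bead-isolated polymorphonuclear MDSC with high GR1, Ly6G and no Ly6C. Tumor-associated macrophages (TAM) were CD11b+F4/80+ cells of the tumor, sorted as live cells that also carried CD45 and lacked Ly6G. Control Shp2f/f mice carry loxP sites in Ptpn11, the gene of the phosphatase SHP-2, and so do Shp2f/fLysMcre mice, which in addition express Cre from the lysozyme M (Lyz2) locus. That promoter is active in monocytes, macrophages and granulocytes and is not restricted to either cell type. There were 2 MDSC libraries and 3 TAM libraries of each genotype. The study reports that TAM came from the same mice as MDSC and that its experiments used both sexes. The labels do not say which libraries share a mouse or whether a library pools mice, so p-values measure the spread between these libraries.

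The 10 factors act in sequence and against each other. Spi1 encodes PU.1, an ETS factor required for the whole myeloid lineage, and Runx1 and Myb are needed in the stem cells and progenitors upstream of it. C/EBP-alpha, the product of Cebpa, opens the granulocyte-monocyte programme, C/EBP-epsilon (Cebpe) drives the genes of secondary granules in maturing granulocytes, and C/EBP-beta (Cebpb) and C/EBP-delta (Cebpd) serve emergency granulopoiesis and the inflammatory genes of macrophages. Gfi1 encodes a zinc-finger repressor that favors granulocytes by holding down monocyte genes, and IRF8 (Irf8) favors monocytes and dendritic cells and restrains neutrophil output. IRF4 (Irf4), its close relative, acts in alternatively activated macrophages, in some dendritic cells and in lymphocytes.

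Total counts were 28844660 to 38222998 per library. The targeted transcript, Ptpn11, was 121 to 125 CPM (read counts scaled to library size, after TMM scaling) in TAM of Shp2f/f mice and 50.9 to 54.2 in TAM of Shp2f/fLysMcre mice, a log2 fold change of -1.24 (adjusted p = 2.96e-09 by the quasi-likelihood test of edgeR with Benjamini-Hochberg adjustment over all genes, the test used for every adjusted p given here). In MDSC it was 99.2 and 113 CPM against 79.8 and 94.8, a log2 fold change of -0.29 that did not pass (edgeR adjusted p = 0.361). The TAM libraries held macrophage transcripts, with C1qa at 1208 to 2222 CPM over both genotypes. The MDSC libraries held transcripts of granulocytes and of monocytes side by side. In Shp2f/f MDSC, the neutrophil surface gene Ly6g averaged 10.4 CPM and the neutrophil markers S100a8 and S100a9 averaged 3331 and 3212 CPM. The monocyte genes Csf1r and Ccr2 averaged 1431 and 1934 CPM, and the Ly6C gene Ly6c2 averaged 498 CPM. The monocyte transcripts go against a description as Ly6G+Ly6C- granulocytic cells alone, and the samples are called MDSC here, as in their labels. Sex-linked transcripts moved with the genotype in both cell types, and Xist averaged 0.0290 CPM in Shp2f/f MDSC and 125.7 CPM in Shp2f/fLysMcre MDSC. The genotype and the share of cells from female mice thus cannot be told apart here. Both Shp2f/fLysMcre MDSC libraries also held the Y-linked transcript Ddx3y, at 22.3 and 27.8 CPM, as a mix of male and female cells would. Replicate 2 of Shp2f/fLysMcre MDSC stood apart, with a summed level of 553 CPM for 6 fibroblast or tumor genes against 11.8 CPM in replicate 1. In bulk libraries such as these, fewer cells of a type and less RNA per cell cannot be told apart.

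The levels of the 10 factors spanned several orders of magnitude. Per length of annotated exon (TPM, a level that can be compared between genes), Cebpb and Spi1 held the first and second rank in all 4 groups. In Shp2f/f MDSC, Cebpb was 1049 and 1229 TPM and Spi1 was 666 and 724 TPM. Cebpa (119 and 129 TPM), Irf8 (99.3 and 102 TPM) and Cebpd (62.4 and 66.0 TPM) followed without overlap. Runx1 (33.6 and 35.4 TPM) and Cebpe (31.0 and 36.9 TPM) came next and overlapped, as did Irf4 (8.67 and 10.2 TPM) and Myb (9.24 and 9.73 TPM). Gfi1 was last, at 3.70 and 4.27 TPM. In Shp2f/f TAM the order of the first 4 was the same, and Myb took the last place at 0.248 to 0.354 TPM.

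**Figure D1:**
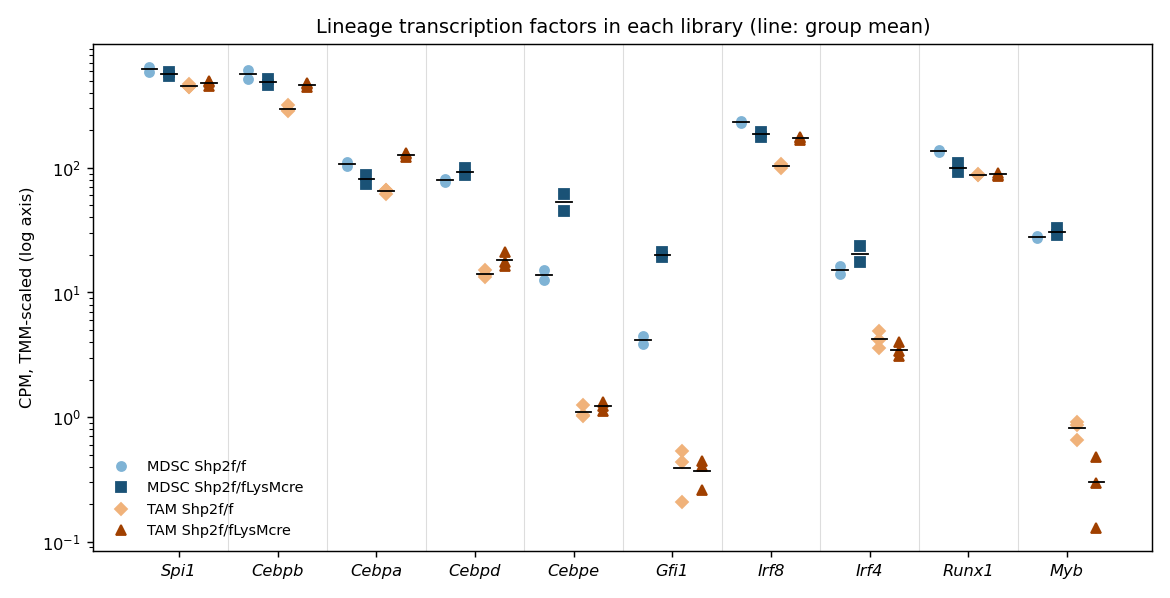
Level of each of the 10 factors in CPM (TMM-scaled, log axis) in every library; points are libraries, colors and shapes mark the 4 groups, and black lines mark group means. Gfi1 and Cebpe were higher in both Shp2f/fLysMcre MDSC libraries than in both Shp2f/f MDSC libraries, and Cebpa, Cebpb and Irf8 were higher in all 3 Shp2f/fLysMcre TAM libraries than in all 3 Shp2f/f TAM libraries.

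The first question was which of the factors differed between the genotypes in MDSC. Gfi1 and Cebpe, the granulocyte repressor and the granule gene activator, rose, and the other 8 did not pass the test. Gfi1 (ENSMUSG00000029275, GRCm38 chromosome 5, 107716657 to 107726036, minus strand) was 4.47 and 3.90 CPM in Shp2f/f MDSC and 20.98 and 19.3 CPM in Shp2f/fLysMcre MDSC. These values rested on 135 to 154 reads and on 771 to 774 reads. The groups were far apart relative to their spread, and the log2 fold change was 2.26 (SE 0.150, edgeR adjusted p = 0.0170). Cebpe (ENSMUSG00000052435, chromosome 14, 54710360 to 54712174, minus strand) was 15.0 and 12.7 CPM in Shp2f/f and 61.2 and 45.2 CPM in Shp2f/fLysMcre MDSC. Its log2 fold change was 1.93 (SE 0.195, edgeR adjusted p = 0.0183), and the lower Shp2f/fLysMcre value was that of replicate 2. Of all 14806 genes tested in MDSC, 4.28% were called, and 3.76% were called higher. Of these 10, chosen with earlier results known, 2 were called.

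Irf8, Runx1, Cebpa, Cebpb and Spi1 had lower values in Shp2f/fLysMcre than in Shp2f/f MDSC, and none of the 5 differences passed the test. In one fit of all 10 samples, which share an estimate of the spread, Runx1, Irf8 and Cebpa were called (edgeR adjusted p = 0.00473, 0.00971 and 0.0128). Irf8 (ENSMUSG00000041515, chromosome 8, 120736358 to 120756694, plus strand) was 230.0 and 238 CPM in Shp2f/f and 195 and 176 CPM in Shp2f/fLysMcre, a log2 fold change of -0.34 (SE 0.119, edgeR adjusted p = 0.209). Runx1 was 140.0 and 133 CPM against 109 and 92.0 CPM, and its log2 fold change of -0.45 had the lowest adjusted p of the factors that did not pass (edgeR adjusted p = 0.150). For Cebpa the values were 103 and 112 CPM against 88.0 and 74.8 CPM, a log2 fold change of -0.41 (edgeR adjusted p = 0.184). Cebpb and Spi1, the most abundant of the factors, had log2 fold changes of -0.22 and -0.14. Irf4, Cebpd and Myb had log2 fold changes of 0.42, 0.23 and 0.14. The genotypes did not overlap for any of the 10 factors, 5 being higher and 5 lower, whereas 48.9% of all genes tested did not overlap.

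The MDSC calls changed with the libraries in the fit. With 1 library left out, its genotype has 1 library, which is assumed to vary like the 2 of the other genotype. With Shp2f/f replicate 1 left out the log2 fold changes of Gfi1 and Cebpe were 2.36 and 2.06 (edgeR adjusted p = 0.590 for both), and with Shp2f/f replicate 2 left out they were 2.16 and 1.82 (edgeR adjusted p = 0.673 for both). In each of these fits 1 gene of the whole table was called. Without Shp2f/fLysMcre replicate 2, the library with fibroblast transcripts, they were 2.33 and 2.15, and 4 of the 10 factors were called, with Irf4 higher and Runx1 lower beside Gfi1 and Cebpe. Without Shp2f/fLysMcre replicate 1, 5 were called, with Cebpa at -0.57, Irf8 at -0.45 and Runx1 at -0.61 beside Gfi1 at 2.16 and Cebpe at 1.66. Irf4 was then at 0.15, against 0.63 without replicate 2.

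Within the C/EBP family, Cebpe made up a larger share of the transcripts in Shp2f/fLysMcre than in Shp2f/f MDSC, a description to which no test was applied. Cebpe made up 2.91% and 2.13% of the summed TPM of Cebpa, Cebpb, Cebpd and Cebpe in Shp2f/f MDSC and 12.0% and 8.45% in Shp2f/fLysMcre MDSC. Cebpe stood at rank 7 among the 10 factors in Shp2f/f MDSC and at rank 3, with 125.2 ± 24.9 TPM (SD, n = 2), in Shp2f/fLysMcre MDSC, where Cebpa was 90.2 ± 9.10 TPM. The share of Cebpb was 82.8% and 84.5% in Shp2f/f and 74.2% and 78.8% in Shp2f/fLysMcre MDSC. In the 6 TAM libraries Cebpe did not exceed 0.451% of the sum. The share of Cebpa there was 10.5% to 11.3% in Shp2f/f and 12.7% to 13.9% in Shp2f/fLysMcre, without overlap, and the share of Cebpb was 84.6% to 87.6% over all 6. Exons of Cebpb overlap Tmem189 and exons of Cebpd overlap Spidr, both on the opposite strand, and the strand setting of the counting was not stated, so these levels are uncertain where the 2 genes overlap. Exons of Gfi1, Cebpa, Runx1 and Myb overlap antisense genes with few reads, which adds uncertainty to the low counts of Gfi1 and Myb in TAM.

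**Figure D2:**
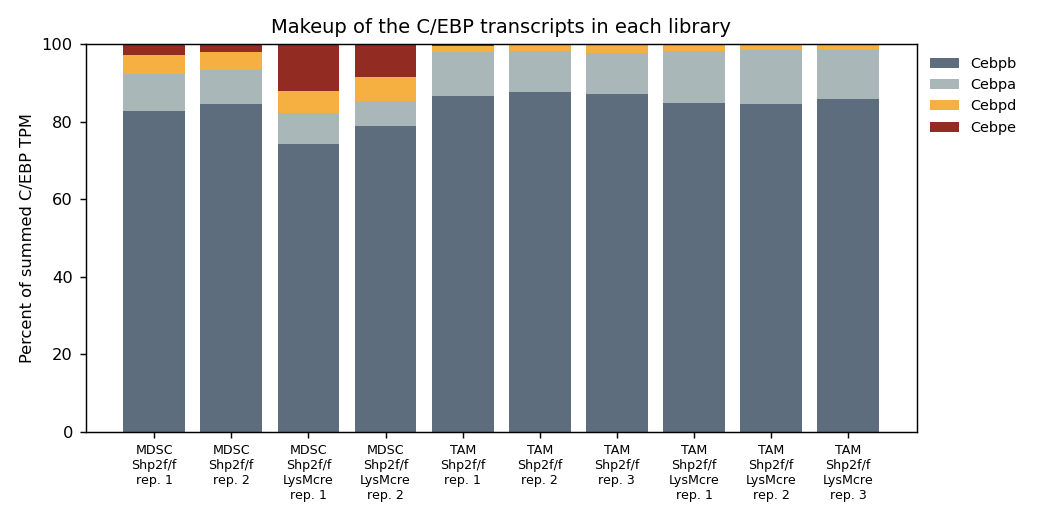
Percent of the summed TPM of Cebpa, Cebpb, Cebpd and Cebpe in each of the 10 libraries, stacked to 100; each bar is 1 library. The Cebpe segment is 12.0% and 8.45% in the Shp2f/fLysMcre MDSC libraries and under 3% in every other library.

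Genes that these factors control in granulocytes were read from lists. 5 of 6 early granulocyte genes, the azurophil granule and progenitor genes downstream of Cebpa and Myb, rose in Shp2f/fLysMcre MDSC, with a median log2 fold change of 1.31 over the list against -0.015 over all genes. Mpo, myeloperoxidase, went from 150.5 ± 27.4 to 440.1 ± 127 CPM (SD, n = 2 each), a log2 fold change of 1.54 (SE 0.248, edgeR adjusted p = 0.0354). Elane, neutrophil elastase, had a log2 fold change of 1.41 and Ms4a3, a marker of granulocyte-monocyte progenitors, one of 1.66. Csf3r, the G-CSF receptor gene, did not pass in MDSC, with a log2 fold change of 0.22. Cebpa and Myb themselves did not pass there, at -0.41 and 0.14, and their part in these rises was not tested. 4 of 5 late granule genes rose, with a list median of 2.38. Ngp, a granule protein gene and a known target of C/EBP-epsilon, went from 660.8 ± 69.8 to 3926 ± 796 CPM, a log2 fold change of 2.57 (SE 0.197, edgeR adjusted p = 0.0170). Ltf (lactoferrin) and Camp (cathelicidin) had log2 fold changes of 2.49 and 2.38, and Mmp8 one of 0.10 that did not pass.

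Markers of other cells were read in the same libraries. The 7 neutrophil markers summed to 7504 to 7526 CPM in Shp2f/f and 19290 to 21420 CPM in Shp2f/fLysMcre MDSC, with 3 called higher. Most of the sum was S100a8 (means 3331 and 8245 CPM) and S100a9 (3212 and 9961 CPM). Ly6g, the third marker called, averaged 10.4 and 31.5 CPM, a log2 fold change of 1.59 (edgeR adjusted p = 0.0186). Mmp9, Cxcr2, Retnlg and Mcemp1 had log2 fold changes of 0.99, 0.81, 0.38 and -0.04 that did not pass. The 5 monocyte markers summed to 5950 to 6303 and 4017 to 5340 CPM, with 0 called by edgeR. Of these 5, 2 had an unadjusted p under 0.05 and 2 were called by DESeq2. The 8 proliferation genes summed to 747 to 788 and 1481 to 1613 CPM, with 7 of the 8 called higher. The 8 erythroid genes summed to 411 to 435 and 852 to 1075 CPM, with 7 of the 8 called higher. The 7 B cell markers summed to 31.6 to 43.8 CPM in Shp2f/f and 18.6 to 18.8 CPM in Shp2f/fLysMcre MDSC, with 3 called lower. The 6 eosinophil and mast cell markers summed to 11.1 to 13.7 and 27.8 to 28.4 CPM, with 1 called higher. The 5 plasma cell markers summed to 173 to 240.2 and 313 to 359 CPM, with 0 called by edgeR, 5 at an unadjusted p under 0.05 and 1 called by DESeq2. The 7 macrophage markers summed to 929 to 989 and 732 to 762 CPM, with 0 called by edgeR, 3 at an unadjusted p under 0.05 and 3 called by DESeq2. None of these 8 lists had a gene at 0 in all libraries of an MDSC group. The part of cell composition in the rise of Gfi1 and Cebpe was not tested.

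The 7 monocyte and macrophage target genes, among them the PU.1 target Csf1r, gave 0 calls in MDSC by edgeR, with 1 at an unadjusted p under 0.05, 1 by DESeq2 and 0 to 2 over all alternative settings. The 6 tested genes controlled by C/EBP-beta and C/EBP-delta gave 0 calls too, with 4 at an unadjusted p under 0.05, 2 by DESeq2 and 0 to 4 over all alternative settings. The 11 other monocyte and dendritic cell factors gave 0 calls in MDSC by edgeR, with 4 at an unadjusted p under 0.05, 3 by DESeq2 and 0 to 5 over all alternative settings. Of 18 other granulocyte and progenitor factors tested, 6 rose and none fell by edgeR, where 3.76% of all genes were called higher. The 3 largest rises were Erg (log2 fold change 2.31), Klf5 (1.97) and Ets1 (1.42). The other 3 were the erythroid and megakaryocyte factors Klf1 (1.30), Gata1 (1.16) and Tal1 (0.92). In either direction, 11 of the 18 had an unadjusted p under 0.05, 7 were called by DESeq2 and 2 by edgeR with no filter.

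In TAM, the same contrast of genotypes involved other members. Cebpa, Irf8, Cebpb and Cebpd rose, Myb fell, and the other 5 did not pass. 5 of 10 were called, and 50.2% of all 14446 genes tested in TAM were called, so that the count of the factors was close to that of genes in general. Cebpa (ENSMUSG00000034957, chromosome 7, 35119293 to 35121928, plus strand) was 66.3, 67.0 and 61.7 CPM in Shp2f/f TAM and 132, 128 and 122 CPM in Shp2f/fLysMcre TAM. No libraries overlapped, and the log2 fold change was 0.94 (SE 0.0427, edgeR adjusted p = 3.83e-08), larger in size than that of 93.9% of the genes tested. Irf8 was 104, 107 and 99.9 CPM in Shp2f/f and 177, 167 and 173 CPM in Shp2f/fLysMcre TAM, a log2 fold change of 0.70 (SE 0.0412, edgeR adjusted p = 2.13e-07). Cebpb (ENSMUSG00000056501, chromosome 2, 167688915 to 167690418, plus strand) was 289, 317 and 287 CPM against 477, 445 and 472 CPM, a log2 fold change of 0.61 (SE 0.0477, edgeR adjusted p = 1.64e-06). Cebpd had the smallest of the 4 rises, from 13.3, 13.8 and 15.2 CPM to 21.1, 16.4 and 17.5 CPM, with a log2 fold change of 0.34 (edgeR adjusted p = 0.0104).

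Myb (ENSMUSG00000019982, chromosome 10, 21124935 to 21160984, minus strand) was near the limit of detection in TAM. It had 31, 33 and 24 reads in the Shp2f/f libraries and 4, 10 and 13 reads in the Shp2f/fLysMcre libraries, or 0.655 to 0.918 and 0.129 to 0.478 CPM. The log2 fold change was -1.47 (SE 0.387, edgeR adjusted p = 0.00815). A set of 7 T and NK cell markers, none of them at 0 in all libraries of a group, summed to 8.35 to 9.81 CPM in Shp2f/f and 3.26 to 4.14 CPM in Shp2f/fLysMcre TAM with all 7 called lower, and the 8 proliferation genes, all called lower, summed to 1187 to 1199 and 640 to 682 CPM. The part of T and NK cells and of proliferation in the fall of Myb was not tested. Gfi1 was at a similarly low level, with 8 to 18 reads in Shp2f/f and 8 to 15 reads in Shp2f/fLysMcre TAM, and its difference between the genotypes was not detectable at this depth (log2 fold change -0.11, SE 0.404).

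Spi1 was 442 to 473 CPM in Shp2f/f and 454 to 499 CPM in Shp2f/fLysMcre TAM, a log2 fold change of 0.04 (SE 0.0429) that turned to -0.06 with scaling by total counts. Runx1 was 87.9 to 88.6 and 86.5 to 91.7 CPM, a log2 fold change of -0.03 (SE 0.0357), the smallest of the 10. Cebpe, at 1.02 to 1.24 and 1.13 to 1.32 CPM, and Irf4, at 3.58 to 4.88 and 3.09 to 3.98 CPM, also overlapped between the genotypes. Scaling by total counts shifted the median over the TAM genes from -0.013 to -0.111 on the log2 scale and the calls from 3452 higher and 3805 lower to 2341 higher and 5225 lower. With it Cebpa, Irf8, Cebpb and Cebpd had log2 fold changes of 0.84, 0.60, 0.51 and 0.24, and all 4 were still called. It also added calls for Irf4 at -0.41 and for Runx1 at -0.13, the latter close to the shift of the median.

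**Figure D3:**
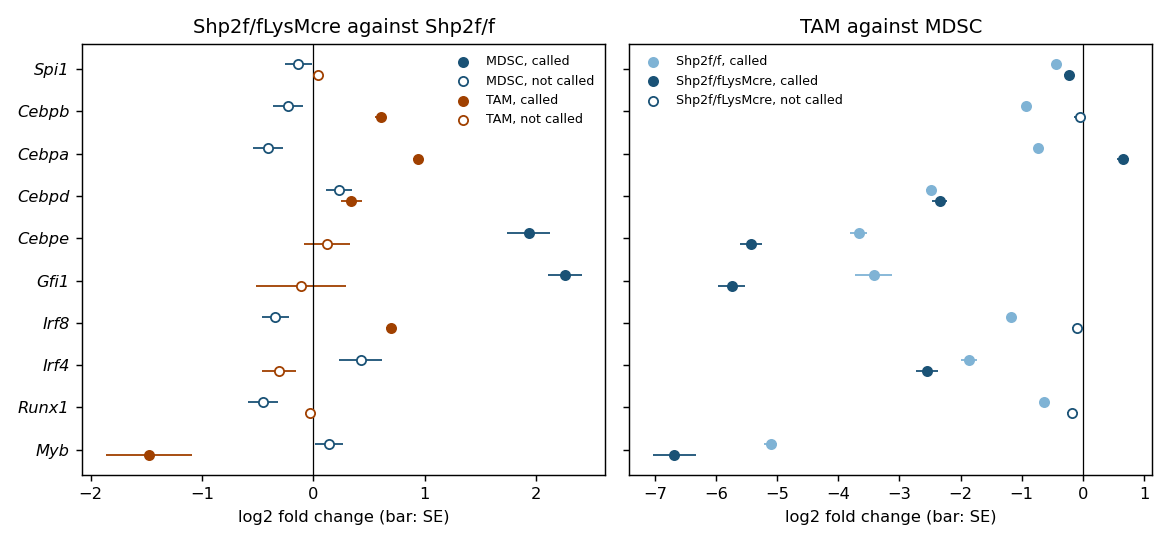
Log2 fold changes of the 10 factors with their SE as bars, between the genotypes within MDSC and within TAM (left) and between TAM and MDSC within each genotype (right); filled points passed at an adjusted p under 0.05. Gfi1 and Cebpe lie near 2 in MDSC and near 0 in TAM, and Cebpa alone lies to the right of 0 for TAM against MDSC, in Shp2f/fLysMcre mice.

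Because Cebpa, Cebpb and Irf8 rose together in TAM, their promoter sequences are shown, 250 bases each, ending at the base before the annotated start (RefSeq, GRCm38.p6, plus strand, 5′ to 3′). Capitals mark matches to a TATA box (TATAAA) or to the core of a GFI1 site (AAATCA, or TGATTT on the other strand).
Cebpa, chr7:35119043-35119292: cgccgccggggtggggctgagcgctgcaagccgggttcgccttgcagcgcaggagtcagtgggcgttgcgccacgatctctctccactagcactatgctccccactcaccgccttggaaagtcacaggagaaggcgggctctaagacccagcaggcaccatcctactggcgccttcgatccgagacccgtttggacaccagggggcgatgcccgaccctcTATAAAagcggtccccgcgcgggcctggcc
Cebpb, chr2:167688665-167688914: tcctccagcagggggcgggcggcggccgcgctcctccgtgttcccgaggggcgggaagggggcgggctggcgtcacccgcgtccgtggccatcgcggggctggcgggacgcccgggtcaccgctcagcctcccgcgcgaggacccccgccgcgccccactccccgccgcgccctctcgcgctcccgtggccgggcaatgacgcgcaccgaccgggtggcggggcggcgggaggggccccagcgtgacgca
Irf8, chr8:120736108-120736357: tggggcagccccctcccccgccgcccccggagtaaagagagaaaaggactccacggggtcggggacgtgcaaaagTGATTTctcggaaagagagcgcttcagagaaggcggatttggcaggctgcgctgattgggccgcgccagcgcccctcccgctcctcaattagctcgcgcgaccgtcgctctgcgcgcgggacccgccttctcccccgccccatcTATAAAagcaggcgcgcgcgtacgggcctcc

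On both strands, 7 motifs were searched: TTNNGCAA for C/EBP, GAGGAA for PU.1, GAAANNGAA for IRF, TGTGGT for RUNX, CAACNG for MYB, AAATCA for GFI1 and TATAAA for the TATA box. Cebpa held a TATA box at -30 to -25 and Irf8 one at -31 to -26, and Irf8 held a GFI1 core at -175 to -170. Cebpb held none of the 7, with a GC content of 81.6% against 66.4% for Cebpa, 67.2% for Irf8 and a median of 52.4% over 32851 promoter windows of the same length. No matches overlapped each other. Of those windows, 12.4% held the TATA box, 12.4% the GFI1 core, 9.56% the C/EBP motif, 23.3% the PU.1 motif, 14.05% the RUNX motif, 29.3% the MYB motif and 7.13% the IRF motif. Such matches are descriptions of letters, not of bound sites. The table of promoters matched 7 of the 10 factors and not Cebpd, Cebpe and Spi1. It also holds an Irf8 window at another start, 120738639, which is not shown. That window had a GFI1 core at -226 to -221, no TATA box and a GC content of 54.0%.

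Target and related genes in TAM leaned toward higher values. All 11 other monocyte and dendritic cell factors rose, with a median log2 fold change of 0.49 against -0.013 over all genes, of which 23.9% were called higher. Egr1, an immediate early factor, went from 353 ± 11.7 to 654 ± 16.4 CPM (SD, n = 3 each), a log2 fold change of 0.85 (SE 0.0382, edgeR adjusted p = 3.42e-08). Maf also had 0.85, Nfil3 had 0.68, Klf4, which acts downstream of IRF8 in monocytes, had 0.62, and Zeb2 had 0.28. In all, 6 of 7 monocyte and macrophage targets rose, led by Itgam, the gene of CD11b, at 0.67, with Csf1r at 0.14. Likewise, 6 of 7 genes controlled by C/EBP-beta and C/EBP-delta rose. Nos2, inducible nitric oxide synthase, went from 22.5 ± 0.984 to 74.4 ± 0.604 CPM, a log2 fold change of 1.69 (SE 0.0446, edgeR adjusted p = 2.20e-09). Arg1, arginase, had 1.07 and Ccl2, a monocyte chemokine gene, had 0.52, whereas Il6 had 0.05 and did not pass. The 7 macrophage markers were all called higher, with none at 0 in all libraries of a group. They summed to 7656 to 7859 CPM in Shp2f/f and 10990 to 11340 CPM in Shp2f/fLysMcre TAM. Of 5 monocyte markers, 2 were called higher, F13a1 (log2 fold change 0.80) and Ly6c2 (0.13), and 2 lower, Ccr2 (-0.45) and Cx3cr1 (-0.40). The 7 dendritic cell markers summed to 6.33 to 7.76 and 4.18 to 4.96 CPM. Of the 5 tested, 0 were called higher and 3 lower. The part of cell composition in the rises was not tested.

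Most genes of the early and late granulocyte lists were too low to test in TAM or did not pass. Of the early granulocyte genes 2 were tested in TAM, and Csf3r rose by a log2 fold change of 0.72, from 115.1 ± 1.97 to 194.7 ± 4.82 CPM (SD, n = 3 each). Among the late granule genes, Mmp8, a collagenase, rose by 0.95, and Ngp, Ltf, Camp and Lcn2 had log2 fold changes of -0.34, -0.24, -0.08 and -0.19 that did not pass. Of the 7 neutrophil markers 6 were tested in TAM. Cxcr2, S100a9 and S100a8 rose by log2 fold changes of 1.03, 0.54 and 0.49 (edgeR adjusted p = 1.87e-07, 1.83e-06 and 3.83e-05), and Mmp9, which macrophages also express, fell by 1.06. The 7 summed to 4222 to 4446 CPM in Shp2f/f and 2052 to 2110 CPM in Shp2f/fLysMcre TAM, of which Mmp9 alone averaged 4073 and 2008 CPM, and none was at 0 in all libraries of a group. The part of neutrophils in the rises of Csf3r and Mmp8 was not tested. Of 14 other granulocyte and progenitor factors tested, 7 rose, led by Sox4 (0.59), Lmo2 (0.51) and Fli1 (0.47), and Ets1 fell by 0.23.

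**Figure D4:**
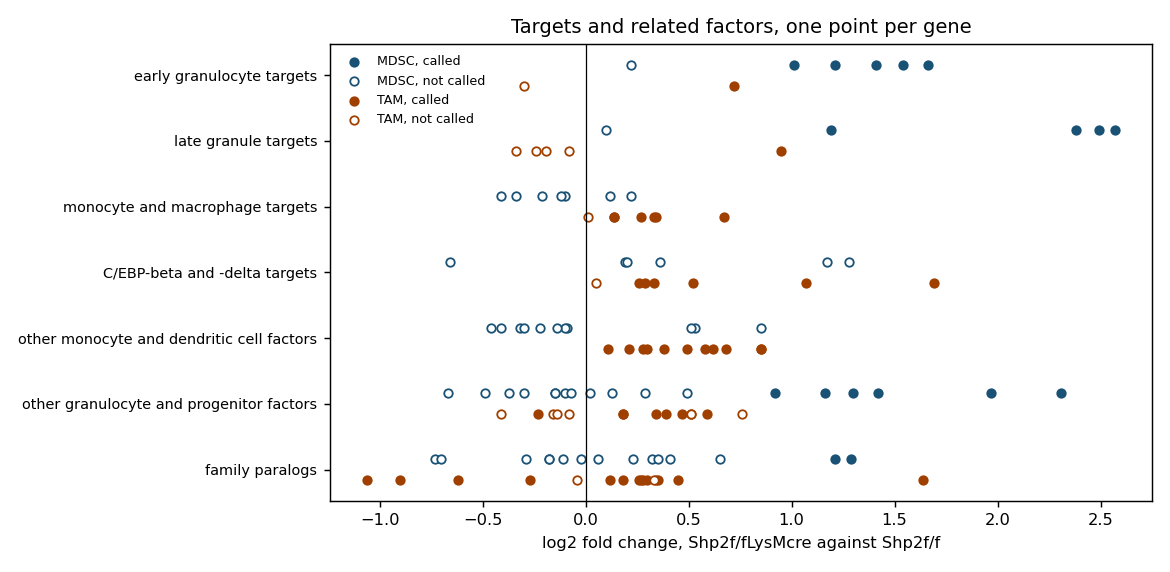
Log2 fold change between the genotypes for each gene of 7 lists, in MDSC and in TAM; each point is 1 gene, and filled points passed at an adjusted p under 0.05. The granulocyte lists hold called genes up to 2.57 in MDSC, and the 11 other monocyte and dendritic cell factors all lie to the right of 0 in TAM.

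Relatives of the factors also differed. Gfi1b, the paralog of Gfi1 that acts in erythroid cells and megakaryocytes, rose in MDSC from 8.42 ± 0.741 to 20.7 ± 1.89 CPM (log2 fold change 1.29, SE 0.141, edgeR adjusted p = 0.0183) and fell in TAM from 1.33 ± 0.209 to 0.728 ± 0.187 CPM (log2 fold change -0.90). Mybl2, a Myb paralog of dividing cells, rose in MDSC (1.21) and fell in TAM (-1.06). Gfi1b and Mybl2 were the 2 paralogs of 15 tested that passed in MDSC. Of 16 tested in TAM, 10 rose and 4 fell. Spic, the PU.1 relative of iron-recycling macrophages, rose most, from 7.42 ± 0.201 to 23.8 ± 0.779 CPM (log2 fold change 1.64, SE 0.0577, edgeR adjusted p = 6.93e-09), and Irf5 rose by 0.45. Of the 12 partners and corepressors tested, such as the corepressor subunits Kdm1a, Rcor1 and Hdac1 used by GFI1, 0 passed in MDSC by edgeR, with 1 at an unadjusted p under 0.05, 1 by DESeq2 and 0 to 3 over all alternative settings. In TAM the IRF partners Batf3 and Batf and the AP-1 gene Jun rose by log2 fold changes of 1.44, 0.79 and 1.28. Batf3 was at a low level, with means of 0.835 CPM in Shp2f/f and 2.32 CPM in Shp2f/fLysMcre TAM. Ep300 rose by 0.20, Hdac2 fell by 0.44 and Kdm1a fell by 0.15.

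The genotype effects of TAM and MDSC were then compared directly, as an interaction over all 10 libraries taken as independent. This fit shared an estimate of the spread between libraries, although the groups differed in spread. The common coefficient of variation was 0.189 in the MDSC fit, 0.0595 in the TAM fit and 0.141 in the interaction fit. It was 0.0679 in the fit of Shp2f/f MDSC with Shp2f/f TAM. In the fit of Shp2f/fLysMcre MDSC with Shp2f/fLysMcre TAM it was 0.196. The larger spread thus went with the Shp2f/fLysMcre MDSC libraries. Their spread can be understated and the p-values too low. In MDSC alone, Cebpa, Irf8, Cebpb, Runx1 and Myb had not passed. Of the 10 factors, which were chosen with earlier results of these data known, 7 differed, against 24.9% of 16581 genes tested. The effect was more positive in TAM for Cebpa by 1.37 on the log2 scale (SE 0.113, edgeR adjusted p = 3.74e-05), for Irf8 by 1.07 (SE 0.0890, edgeR adjusted p = 3.97e-05), for Cebpb by 0.86 and for Runx1 by 0.45. It was more positive in MDSC for Gfi1, with a difference of -2.34 (SE 0.421, edgeR adjusted p = 0.00325), for Cebpe, with -1.78 (SE 0.243), and for Myb, with -1.59. For Cebpd, Spi1 and Irf4 the differences of 0.14, 0.21 and -0.70 did not pass. The targeted transcript Ptpn11 differed in the same test by -0.92 (SE 0.118, edgeR adjusted p = 0.00045), its fall being larger in TAM. Runx1 did not pass without Shp2f/f MDSC replicate 1 (edgeR adjusted p = 0.0640) and Myb did not pass without Shp2f/f MDSC replicate 2 (edgeR adjusted p = 0.0535). Scaling by total counts moved the median over all genes from -0.013 to -0.184 and the calls from 2030 higher and 2102 lower to 1235 and 3122. With it all 7 factors still passed, Irf4 passed at -0.87, and Cebpd turned to -0.03.

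The balance of Gfi1 and Irf8 was read as the log2 ratio of their counts, after adding 0.5 to each count, which needs no scaling between libraries. It was -5.68 and -5.93 in Shp2f/f MDSC and -3.21 and -3.19 in Shp2f/fLysMcre MDSC. The means differed by 2.60, and the groups did not overlap, but 2 against 2 libraries cannot give an exact permutation p below 0.333, which is the value found (two-sided). In TAM the ratio was -7.57, -8.92 and -7.80 in Shp2f/f and -9.33, -8.50 and -8.68 in Shp2f/fLysMcre. The mean difference of -0.74 was within the overlap of the groups (exact permutation p = 0.300, two-sided, where 0.100 is the smallest possible). The TAM ratios rested on 8 to 18 reads of Gfi1.

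**Figure D5:**
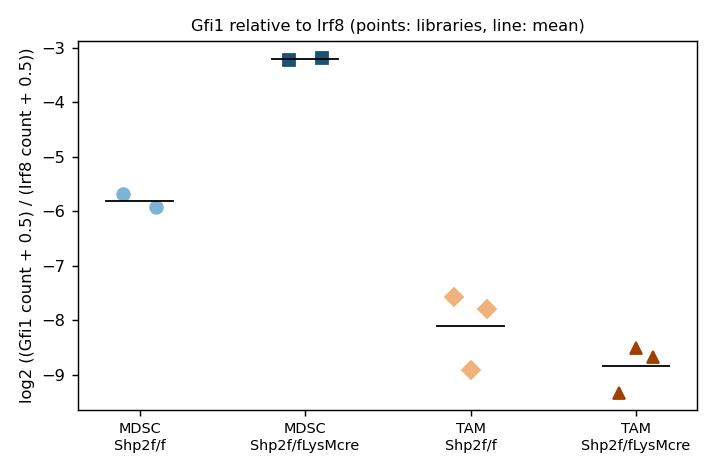
Log2 ratio of the Gfi1 count to the Irf8 count, 0.5 added to each, by group; points are libraries and lines are group means. The Shp2f/fLysMcre MDSC libraries lie at -3.21 and -3.19, above the other 8 libraries.

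The cell types were compared within each genotype. Both comparisons contain the difference of spleen and tumor and of the isolation, which cannot be told apart from cell type, and they share libraries with the comparisons above. In Shp2f/f mice all 10 factors were lower in TAM than in MDSC, where 78.8% of 15659 genes tested were called and 38.8% were called lower. The log2 differences were largest for Myb (-5.10), Cebpe (-3.66), Gfi1 (-3.42), Cebpd (-2.49) and Irf4 (-1.86). They were -1.17 for Irf8, -0.92 for Cebpb, -0.73 for Cebpa, -0.63 for Runx1 and -0.44 for Spi1 (SE 0.0526, edgeR adjusted p = 3.64e-05). 

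In Shp2f/fLysMcre mice, a comparison added after the data had been seen, 6 factors were lower in TAM, 1 was higher and 3 did not pass, where 63.5% of 15741 genes were called. Cebpa was higher in TAM, at 122 to 132 CPM against 74.8 and 88.0 CPM in MDSC, a log2 difference of 0.66 (SE 0.0936, edgeR adjusted p = 0.00171), whereas in Shp2f/f mice the same gene had been lower in TAM. Cebpb, Irf8 and Runx1 had differences of -0.05, -0.10 and -0.17 that did not pass. Gfi1 (-5.75), Cebpe (-5.43) and Myb (-6.68) were lower in TAM by more than in Shp2f/f mice, by the interaction test given above, and Irf4 and Cebpd had differences of -2.55 and -2.34. Spi1 was lower by 0.23 on the log2 scale (edgeR adjusted p = 0.0442) and lost its call in 7 of 13 alternative settings. Scaling by total counts moved the median over all genes from -0.051 to -0.256 and the calls from 4689 higher and 5301 lower to 3701 and 6552, and Cebpa remained higher in TAM with it, at 0.46.

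The genes whose pattern over the 10 libraries was most like that of a factor were sought among the 8850 genes that averaged 10 CPM or more, by Pearson's r of log2 CPM. The 10 libraries share the split between MDSC and TAM, which sets high values of r for many genes, and the r values are given as a description. For Gfi1 the nearest were Cdan1 and Tuba4a (r = 0.994 each), and for Cebpe they were Ighg2b (0.999) and Itgb2l (0.998), an integrin gene of neutrophils. Irf8 was nearest to Trib1 (0.991), which encodes a pseudokinase that promotes the breakdown of C/EBP-alpha, and to Tnfsf14 (0.990). Myb was nearest to Ccdc88c (0.998) and to the progenitor receptor gene Flt3 (0.997), Cebpd to Tmem273 (0.998), Cebpa to Pla2g7 and Susd6 (0.976 each), Cebpb to Bscl2 (0.984), Spi1 to Ubl7 (0.989), Irf4 to Prkar2b (0.995) and Runx1 to Endod1 (0.991).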

How the data were processed

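Total RNA of the 10 samples was sequenced from poly(A)-selected stranded libraries. Per the labels and the methods of the study, the authors trimmed reads with Cutadapt 2.5, aligned them with STAR 2.7.3a to GRCm38 and counted reads per Ensembl gene with featureCounts of Subread 1.6.2. The values used are these deposited raw counts. The strand setting and the handling of multi-mapping reads are not given in the sources used here. A second deposited table, of normalized values, was not used.

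The members and the gene lists were chosen with earlier results of these data known. Symbols, positions and exon lengths came from GENCODE M21, which matched 99.67% of identifiers. Genes were kept by filterByExpr (minimum count 10), scaled by TMM and tested with the edgeR 4.0.16 quasi-likelihood test in R 4.3.3. The test was checked on simulated counts with the same spread in every group. That check thus does not cover groups that differ in spread. P-values were adjusted over all genes by the Benjamini-Hochberg (BH) method, and a gene was called under 0.05. TPM used the union of exons. Named genes were the 10 factors, Ptpn11, up to 3 called genes of each list with the largest fold change and a mean of at least 1 CPM, and 2 genes nearest to each factor; 1 listed gene is not reported here and was left out of its list, and further list genes in the text were chosen after their values were seen. Alternatives were DESeq2 1.42.0, other scalings and filters, the replicate number as a block, a joint fit of every sample and leaving out each library.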

Additional observations from a re-analysis of the deposited data

Results flagged for a closer look

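The effect of the genotype differed between TAM and MDSC for 7 of the 10 factors by the interaction test (edgeR quasi-likelihood, BH-adjusted over all genes). As TAM minus MDSC on the log2 scale they were 1.37 for Cebpa, 1.07 for Irf8, 0.86 for Cebpb and 0.45 for Runx1, and -2.34 for Gfi1, -1.78 for Cebpe and -1.59 for Myb. The targeted transcript Ptpn11 differed in the same test, by -0.92. Over 17 alternative settings each, Cebpa, Irf8, Cebpb, Gfi1 and Cebpe were called in all 17, and Runx1 and Myb in 16. Values of Gfi1 and Myb in TAM rest on 4 to 33 reads per library. The interaction fit shared an estimate of the spread over all groups, so its p-values can be too low. Estimates were higher in fits that held Shp2f/fLysMcre MDSC than in those that did not. No test for an outlying library was run in these groups of 2 or 3.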

How the results depend on the processing

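Of 688 values of single factors under alternative settings, 646 kept their direction and their side of the threshold, 13 lost a call, 22 gained one and 7 changed sign. In MDSC, 2 factors were called, 5 with the replicate block (Runx1, Irf4 and Cebpa beside Gfi1 and Cebpe), 5 in one fit of 10 samples (Runx1, Irf8 and Cebpa beside Gfi1 and Cebpe), and 0 to 5 with 1 library left out. Calls over all genes in MDSC, 556 higher and 77 lower, became 968 and 288 with DESeq2, 122 and 8 with no filter, 1870 and 804 with the block, 1739 and 927 in one fit, and from 0 and 1 to 2638 and 1768 with 1 library left out. Those of TAM, 3452 and 3805, became 2608 and 2229 in one fit, and those of the interaction, 2030 and 2102, ranged from 1282 and 1164 to 3490 and 3533 with 1 library left out. Changes of sign occurred only for values that had not passed: with 1 library left out, Myb in MDSC ranged from -0.0023 to 0.25, Gfi1 in TAM from -0.42 to 0.16 and Cebpb between cell types in Shp2f/fLysMcre mice from -0.12 to 0.0015; with total counts, Spi1 in TAM was -0.06 and Cebpd in the interaction -0.03; in one fit, Runx1 in TAM was 0.01. Counts of called genes in the 8 lists of targets and related factors moved by over 1.5 times in 37 of 96 alternatives in MDSC, 5 of 112 in TAM and 8 of 136 in the interaction; in MDSC the early granulocyte genes ranged from 0 to 6 called and the late granule genes from 0 to 5. The replicate numbers were not taken to pair the samples: deviations of same-numbered libraries of the 2 genotypes correlated at -0.083 to 0.064 in TAM and at 0.174 in MDSC, where 2 replicates give a single value that does not settle it. The ratio of Gfi1 to Irf8 changed by 2.48 to 2.72 in MDSC and by -1.15 to -0.48 in TAM with 1 library left out. The cause of these shifts was not tested. Depth limits the values of Gfi1 and Myb in TAM.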
